A study of Mus musculus with 2 samples.

Results

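Major histocompatibility complex (MHC) class II genes build the machinery that shows peptides from outside the cell to CD4 T cells. The 7 members described here were H2-Ab1, H2-Aa and H2-Eb1, which encode chains of the surface peptide receptors, Cd74, which encodes the invariant chain that guards and escorts new class II molecules, H2-DMa, which encodes a chain of the peptide-exchange factor DM, H2-Ob, which encodes a chain of its inhibitor DO, and Ciita, which encodes the class II transactivator. They were taken as every probe set that the platform annotation gives 1 gene symbol, that symbol being 1 of the 7. The choice was made because all H2-Ab1 probe sets were lower on the array labelled knockout, so the ratios below are a description of the values that chose the members. There were 15 such probe sets of 34945 with a single symbol, and 7 genes of 18193.

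The series compared the ventral prostate of U19/Eaf2 -/- mice with that of U19/Eaf2 +/+ mice. Both samples came from male C57BL/6J mice aged 3 months, and each was 1 sample on 1 Affymetrix mouse array, so that there were 2 arrays and no replicates. U19/Eaf2 is an androgen-induced partner of transcription elongation factors, and the labels do not say how or in which tissues its gene was disrupted, nor if animals were pooled. The values are linear probe-set signals that the authors had scaled so that the trimmed mean of each array was 500.003 on the array labelled knockout and 500.002 on the wild-type array. No test could be run on single arrays, and no ratio below has a replicate check. The precision is limited by the number of arrays.

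Facts of the whole data set bear on every ratio. The Eaf2 probe set read 702 on the array labelled knockout and 691 on the wild-type array. That probe set does not separate the genotypes. Which exons the deletion takes out is not stated in the labels, and a probe set outside them would check nothing, so the sample is called the array labelled knockout. The 3' over 5' ratio of the Actb control probe sets, a guide to RNA degradation, was 1.65 on the array labelled knockout and 1.25 on the wild-type array, and the Gapdh ratio was 0.847 against 0.714. Signals were read against a floor of 166, below which 50% of non-control values on the 2 arrays lay. A probe set was used for a ratio when it reached the floor on at least 1 array, and a signal below the floor was raised to it, so that such a ratio is a bound. In 4497 genes, 2 or more probe sets reached the floor on each array, and the difference in log2 ratio between a random pair of probe sets of the same gene had an SD of 0.494, or 0.350 per probe set. The 2 probe sets of the pair had the same direction in 54.9% of these genes. The SD is the only spread the data hold, and it leaves out animals, dissection and hybridisation.

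Class II molecules are displayed mainly by dendritic cells, macrophages and B cells, and other cells can make them when interferon gamma induces Ciita. The alpha and beta chains pair in the endoplasmic reticulum on the invariant chain, travel to endosomes where cathepsins trim that chain to a fragment, and exchange the fragment for an antigenic peptide with the help of DM. In a gland such as the prostate, resident leukocytes among the ducts and in the stroma are the usual source of these transcripts. C57BL/6 mice carry a deletion in the H2-Ea gene and so make no E alpha chain, which leaves H2-Ab1 and H2-Aa as the chains of their surface class II molecule. In RNA from whole tissue, fewer cells of a type and less RNA per cell cannot be told apart.

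A promoter module known from class II genes is shown here because it ties them to the same transactivator. In it an X box, bound by the RFX complex, lies a short way before a Y box, bound by NF-Y, and the proteins assembled there recruit CIITA. The windows are RefSeq sequences of build GRCm38.p6, 300 bases each, running from 250 bases before to 50 bases after the annotated start. Windows of 4 of the 7 members are described, H2-Aa, H2-Eb1, H2-Ob and H2-DMa, the last with 2 starts. Windows of H2-Ab1, Cd74 and Ciita are not described, and the counts of member and class II chain windows leave them out. The X box was searched as CNNGCAAC and the Y box as GATTGG on both strands, and in the windows shown no X match overlaps a Y match. Capitals mark the matches. The 3 member windows with an X match followed by a Y match on the gene's strand are these, H2-Aa at chr17:34287774-34288073 on the minus strand, H2-Eb1 at chr17:34305617-34305916 on the plus strand and H2-Ob at chr17:34238655-34238954 on the plus strand.
H2-Aa: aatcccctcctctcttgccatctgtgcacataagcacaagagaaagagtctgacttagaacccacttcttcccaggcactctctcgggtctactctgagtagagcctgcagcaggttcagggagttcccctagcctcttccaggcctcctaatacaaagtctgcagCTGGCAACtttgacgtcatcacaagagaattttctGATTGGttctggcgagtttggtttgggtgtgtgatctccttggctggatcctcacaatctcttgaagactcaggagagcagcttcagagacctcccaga
H2-Eb1: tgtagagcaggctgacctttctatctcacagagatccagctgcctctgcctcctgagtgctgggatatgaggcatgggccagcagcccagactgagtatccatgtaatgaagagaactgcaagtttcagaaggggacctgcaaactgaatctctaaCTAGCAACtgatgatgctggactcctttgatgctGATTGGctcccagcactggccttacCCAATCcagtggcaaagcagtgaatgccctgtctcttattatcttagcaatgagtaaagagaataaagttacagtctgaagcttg
H2-Ob: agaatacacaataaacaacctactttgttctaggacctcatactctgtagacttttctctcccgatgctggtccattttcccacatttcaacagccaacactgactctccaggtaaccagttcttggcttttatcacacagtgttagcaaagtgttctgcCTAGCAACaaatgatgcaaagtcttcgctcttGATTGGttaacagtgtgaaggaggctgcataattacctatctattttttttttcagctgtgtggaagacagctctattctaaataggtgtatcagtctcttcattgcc
The X match began at base 167 of the H2-Aa window and the Y match at base 202, with 27 bases between them. In H2-Eb1 the X match began at base 157 and the Y match at base 191, 26 bases apart, and a further Y match lay on the opposite strand. In H2-Ob they began at bases 161 and 193, 24 bases apart.

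Neither H2-DMa window held an X match followed by a Y match within 10 to 30 bases. The window at chr17:34122582-34122881 on the plus strand held an X match on the opposite strand alone, and that at chr17:34125268-34125567 a Y match alone. Of the other class II chains, H2-Oa, which encodes the alpha chain of DO, and H2-Eb2, a relative of H2-Eb1, held the arrangement, while the windows of H2-DMb1 and H2-DMb2, the beta chains of DM, held a Y match and no X match. In all, 5 of the 9 windows of class II chains described here held it. It is shown from the X to the Y match beside that of the members, to set their spacing side by side.
H2-Aa module: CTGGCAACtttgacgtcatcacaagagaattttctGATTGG
H2-Eb1 module: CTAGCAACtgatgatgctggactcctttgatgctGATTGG
H2-Ob module: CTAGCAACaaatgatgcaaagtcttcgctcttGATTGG
H2-Oa module: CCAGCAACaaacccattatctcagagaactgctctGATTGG
H2-Eb2 module: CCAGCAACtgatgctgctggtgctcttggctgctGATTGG
The H2-Oa window lay at chr17:34092129-34092428 and the H2-Eb2 window at chr17:34325425-34325724, both on the plus strand. Among all 32851 windows of this length, 11.2% held an X match and 16.1% a Y match on either strand, and 1.96% held both. X followed by Y on the gene's strand, 10 to 30 bases apart, was held by 25 windows, or 0.0761%. These windows belonged to 20 genes, 5 of them class II chains. A match is a description of letters and not a binding site. Of the 15 other genes with the arrangement, 7 were measured, with a median log2 ratio of 0.0056. Of these 7, 3 were lower on the array labelled knockout, where 53.0% of all genes were lower.

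H2-Ab1, the beta chain of the surface molecule, read lower on the array labelled knockout in all 3 of its probe sets. Its brightest probe set, 1450648_s_at, read 975 on the array labelled knockout and 1662 on the wild-type array, 1.70-fold lower. The second, 1451721_a_at, read 250.4 on the array labelled knockout against 412 on the wild-type array, 1.65-fold lower. These 2 probe sets gave log2 ratios of -0.77 and -0.72, which differ by 0.05, inside the SD of 0.494 between probe sets of a gene. The third, 1425477_x_at, read 48.1 on the array labelled knockout, below the floor, and 265 on the wild-type array, which bounds the difference at 1.60-fold lower or more. Of 1261 genes with exactly 3 probe sets in use, 18.5% had all 3 lower and 0.317%, 4 genes, had all 3 at least 1.5-fold lower. H2-Ab1 was picked for this property, and nothing is read from its place among those genes. All 3 H2-Ab1 probe sets have names ending in _s_at, _x_at or _a_at, the kinds that can match more than 1 transcript.

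H2-Aa, the alpha chain that pairs with H2-Ab1, gave no single direction. Its brightest probe set, 1435290_x_at, read 2990 on the array labelled knockout and 2621 on the wild-type array, 1.14-fold higher. The probe set 1438858_x_at read 1118 on the array labelled knockout against 946 on the wild-type array, 1.18-fold higher. In contrast, 1452431_s_at read 363 on the array labelled knockout and 590 on the wild-type array, 1.62-fold lower, a log2 ratio of -0.70 beside the -0.72 to -0.77 of the H2-Ab1 probe sets measured on both arrays. The dimmest, 1443783_x_at, read 158 on the array labelled knockout, below the floor, and 184 on the wild-type array, at least 1.11-fold lower. The 4 log2 ratios of H2-Aa therefore spanned 0.94, against a median span of 0.68 over 550 genes with exactly 4 probe sets in use. A span at least as wide was found in 24.2% of those genes, and an even split of directions in 28.5%. All 4 H2-Aa probe sets are of the _x_at or _s_at kind.

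H2-Eb1, the E beta chain, is transcribed in C57BL/6 mice although its alpha partner is missing. Its only probe set, 1417025_at, read 1238 on the array labelled knockout and 1439 on the wild-type array, 1.16-fold lower, a log2 ratio of -0.22 that is smaller than the SD of 0.350 per probe set. The 3 probe sets of H2-Ea were below the floor on both arrays, at 38.3 to 73.5 on the array labelled knockout and at 14.1 to 57.9 on the wild-type array. No H2-Ea signal reached the floor in this C57BL/6J tissue.

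**Figure D1:**
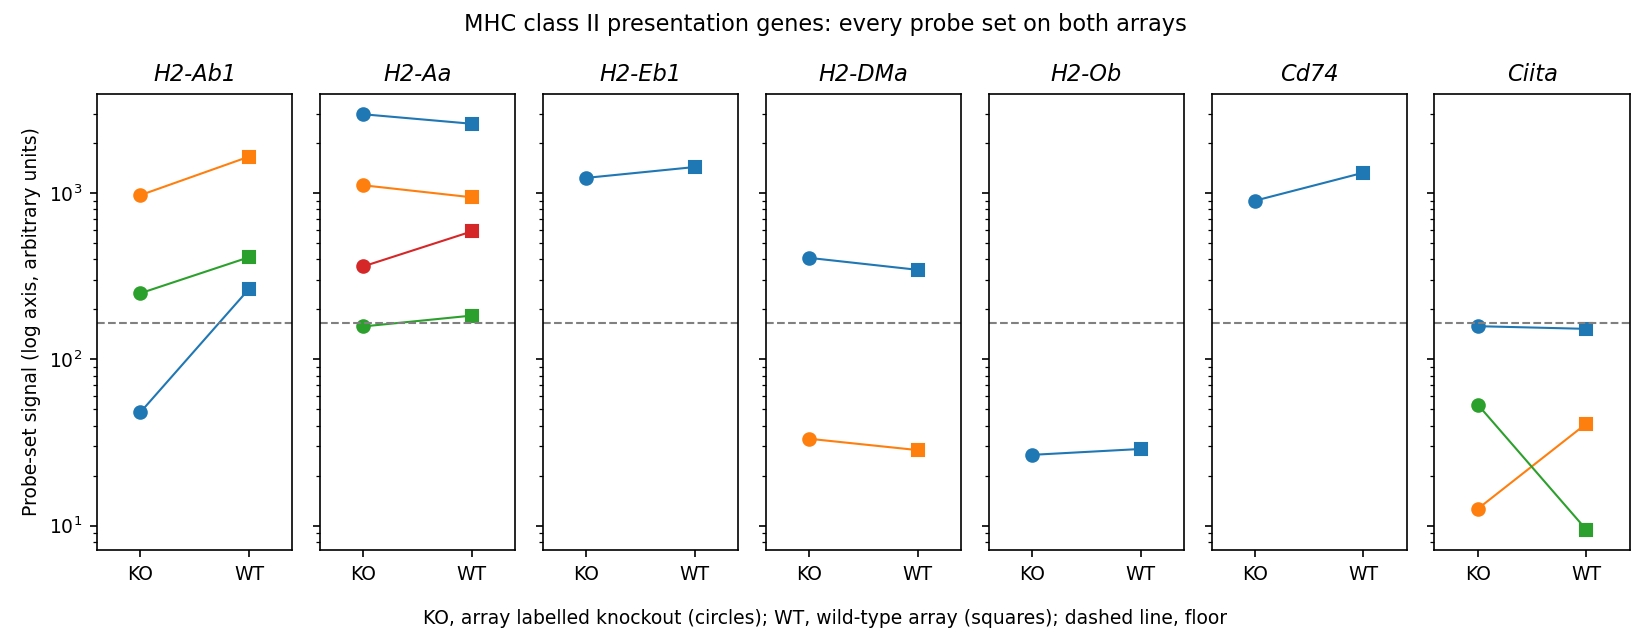
Signal of every probe set of the 7 members on the array labelled knockout (circles, left) and the wild-type array (squares, right), on a log axis, with lines joining the values of the same probe set and the floor of 166 dashed. All 3 H2-Ab1 lines and the Cd74 line lie lower on the array labelled knockout, H2-Aa lines run both ways, and the H2-Ob and Ciita points all lie below the floor.

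Cd74, the invariant chain, was read by 1 probe set, 1425519_a_at. Its signal was 902 on the array labelled knockout and 1330 on the wild-type array, 1.47-fold lower. The log2 ratio of -0.56 was larger in size than the SD of 0.350 per probe set, a spread that holds no variation between animals or arrays. No other Cd74 probe set was available to compare it with.

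Of the peptide-editing members, H2-DMa was measured on both arrays and H2-Ob was below the floor. H2-DMa read 409 on the array labelled knockout and 346 on the wild-type array in 1422527_at, 1.18-fold higher, with 33.3 against 28.5 in its other probe set, both below the floor. H2-Ob, normally a gene of B cells and thymic epithelium, read 26.7 on the array labelled knockout and 28.9 on the wild-type array, both below the floor. Ciita, the regulator that class II promoters depend on, also stayed below the floor in all 3 probe sets. They read 159, 12.6 and 53.5 on the array labelled knockout, against 153, 41.1 and 9.45 on the wild-type array, in the order 1421210_at, 1421211_a_at and 1447075_at. No ratio is given for these, and values below the floor are not shown to be absent transcripts.

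Of the 15 member probe sets, 10 entered, 8 of them measured on both arrays and 2 as bounds, and 5 reached the floor on neither. Of the 10, 7 were lower on the array labelled knockout and 3 higher, where 54.8% of the 20538 single-symbol probe sets in use were lower. At least 1.5-fold lower were 4 of the 10, against 7.62% of all such probe sets, and these 4 were the 3 of H2-Ab1 and 1 of H2-Aa, so they share 2 genes. None of the 10 was at least 1.5-fold higher, against 4.85%, and none was at least 2-fold lower or 2-fold higher, against 1.04% and 0.687%. Taking each gene by its brightest probe set, 5 of 7 members entered, with H2-Ab1, Cd74 and H2-Eb1 lower and H2-Aa and H2-DMa higher. Over all 11671 genes in use 53.0% were lower, so 3 of 5 is near the background. H2-Ab1 alone was at least 1.5-fold lower, against 6.26% of all genes, and 0 of the 5 were at least 2-fold lower, against 0.883%. Likewise 0 of the 5 were at least 1.5-fold higher, against 4.69%, or at least 2-fold higher, against 0.591%. The median log2 ratio of the 5 was -0.22, where that of all genes was -0.03 with an SD of 0.373. It was -0.39 with a 70th percentile floor and -0.042 with a pseudocount of 50. Without suffixed probe sets it was 0.011, over only 2 members, H2-Eb1 and H2-DMa, whose own ratios did not change. In every other alternative the median was below 0. Its direction is not settled, since it hangs on which members enter. Because the members were chosen on this contrast, these shares support nothing by themselves.

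**Figure D2:**
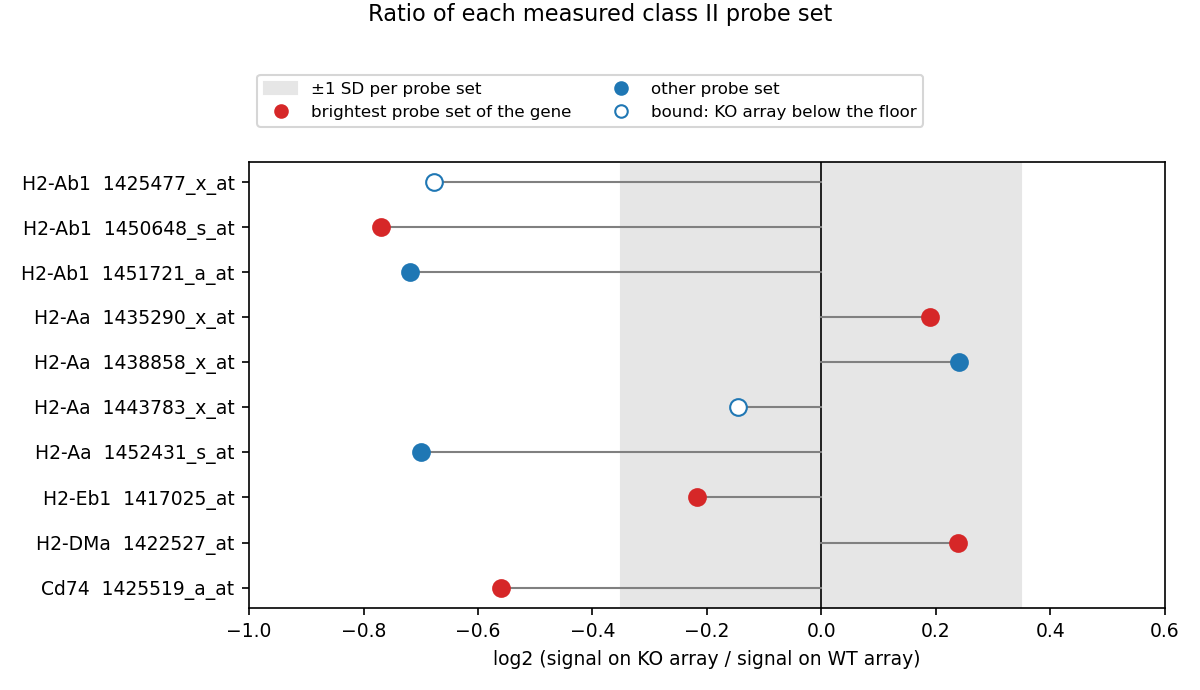
Log2 ratio of signal on the array labelled knockout over the wild-type array for the 10 member probe sets in use, red for the brightest of each gene, blue for others and open for bounds, with the shaded band of 0.350 on either side of 0 for the SD per probe set. The 3 H2-Ab1 probe sets, 1 H2-Aa probe set and Cd74 lie to the left of the band, and the remaining 5 lie inside it.

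The remaining class II chains were few and low. H2-DMb2, a beta chain of DM, read 139 on the array labelled knockout, below the floor, and 226 on the wild-type array, at least 1.36-fold lower, and its other 2 probe sets were below the floor. H2-Eb2 read 422 on the array labelled knockout against 299 on the wild-type array, 1.41-fold higher. H2-Oa read 13.3 against 123, both below the floor. The list also held H2-Bl, a gene of the class I type in spite of its place there, at 246 on the array labelled knockout and 322 on the wild-type array. With it, 3 of 5 genes on the array entered and 2 were lower, and without it 1 of 2, where 53.0% of all genes were lower.

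The class II genes lie in a block on chromosome 17, with the genes for peptide supply to class I molecules among them. Of the 14 protein-coding genes from H2-Oa to H2-Eb2, 11 were in use, H2-DMb2 as a bound. Of the 11, 7 were lower and 4 higher on the array labelled knockout, where 53.0% of all genes were lower. H2-Ab1, 1 of the 7, was chosen for reading lower. The median log2 ratio of the 11 was -0.22, against -0.03 over all genes, and lower and higher genes were interspersed along the block. The neighbours H2-Ab1 and H2-Aa, adjacent in gene order, had log2 ratios of -0.77 and 0.19, and the peptide transporter subunits Tap1 and Tap2 had -0.31 and 0.21. The members Cd74 and Ciita lie elsewhere, on chromosomes 18 and 16.

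**Figure D3:**
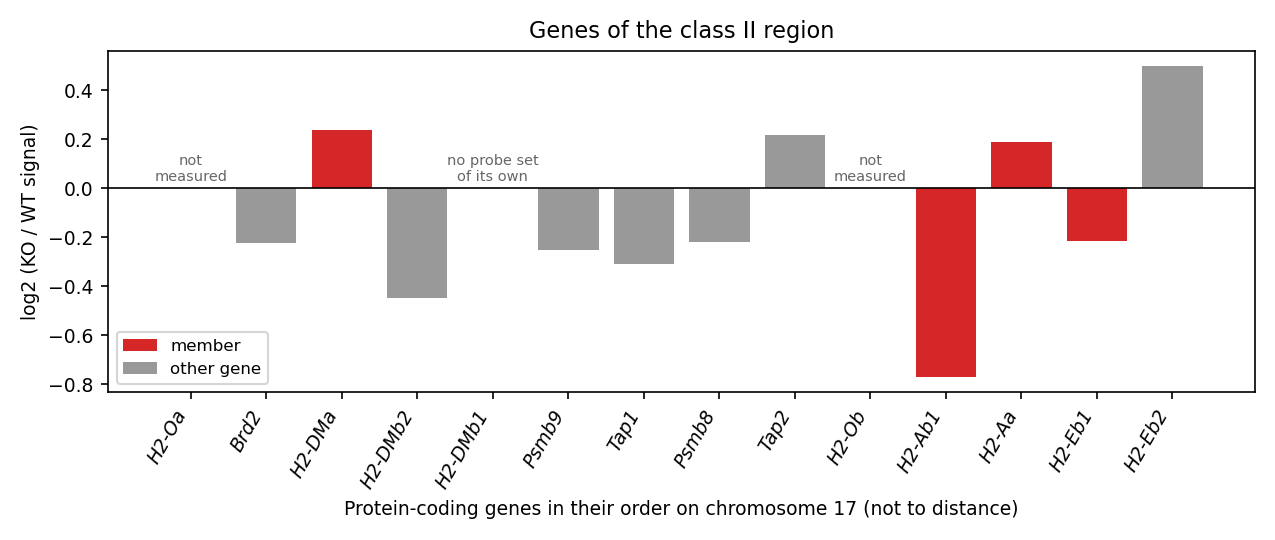
Log2 ratio of the array labelled knockout over the wild-type array for the 14 protein-coding genes of the class II block in their order on chromosome 17, spaced evenly, with members in red and other genes in grey, and the H2-DMb2 bar a bound. H2-Ab1 at -0.77 and H2-Eb2 at 0.50 are the lowest and the highest of the 11 genes in use.

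The list of class II transcription regulators held the RFX, NF-Y and CREB proteins of the X and Y boxes, coactivators, and interferon and myeloid factors that act on Ciita or its target cells, and it did not share 1 direction. All 16 on the array entered, 8 lower and 8 higher, where 53.0% of all genes were lower. Their median log2 ratio was -0.05, and 1 of 16 was at least 1.5-fold lower, a share near the 6.26% of all genes. That gene was Rfxank, a subunit of the RFX complex, which read 307 on the array labelled knockout and 582 on the wild-type array, a log2 ratio of -0.92, while its other probe sets in use ran up to -0.02. Crebbp, a coactivator that CIITA recruits, read -0.40 on the same scale, though 1 of its 3 probe sets went the other way. The highest were Nfyc, a subunit of NF-Y, at 0.24, and the acetyltransferase Kat2b, also at 0.24 with 1 of 3 probe sets opposite. The RFX subunits Rfx5 and Rfxap had 0.21 and 0.18. The list median turned to 0.04 when the floor was raised to the 70th percentile.

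Interferon gamma itself was below the floor, with Ifng at 4.22 on the array labelled knockout and 6.49 on the wild-type array. Of its pathway 5 of 6 genes entered, 3 lower and 2 higher, where 53.0% of all genes were lower, with a median of -0.27. The receptor chain Ifngr2 read -0.46, though 1 of its 2 probe sets went the other way, and the feedback inhibitor Socs1 a bound of -0.27. The kinases Jak2 and Jak1 had 0.68 and 0.51, Jak2 in the same direction in both probe sets and Jak1 with 1 of 3 opposite. The median of this list turned to 0.12 when the floor was raised to the 70th percentile, and likewise without suffixed probe sets, so it has no settled direction.

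Proteases and trafficking proteins that process class II cargo were split. Of 14 genes on the array 13 entered, 6 lower and 7 higher, where 53.0% of all genes were lower. Their median was 0.05, which was -0.21 without suffixed probe sets and -0.09 with the median over probe sets. Cathepsin S, Ctss, the main enzyme that trims the invariant chain in antigen-presenting cells, read 1598 on the array labelled knockout and 1347 on the wild-type array, a log2 ratio of 0.25. Cathepsin H, Ctsh, also had 0.25, with 1 of 2 probe sets opposite. Cathepsin F, Ctsf, had -0.81, but its other probe set in use had 1.502. The tetraspanin Cd9 had -0.52. Of 7 costimulatory genes 5 were below the floor, among them Cd80 and Cd40, while Icosl had -0.03 and Cd86 a bound of -0.04. In the whole data set 11671 of 18193 genes were in use.

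Class I presentation genes were mostly lower. Of 14 measured genes 11 were lower on the array labelled knockout and 3 higher, where 53.0% of all genes were lower, and their median was -0.24, which stayed between -0.31 and -0.19 in the alternatives run. Tapbp, tapasin of the peptide-loading complex, read 2597 on the array labelled knockout and 3513 on the wild-type array, a log2 ratio of -0.44. B2m, the light chain of class I molecules, read 16672 against 22489, a log2 ratio of -0.43. Both went the same way in 2 of 2 probe sets. Tap2 had 0.21 and the chaperone Pdia3 0.11, the last with 1 of 2 probe sets opposite. None of the 14 was 1.5-fold lower, against 6.26% of all genes.

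Markers of the cells that carry class II molecules were examined beside these values. Their summed signals include genes below the floor. Over all genes, 11671 of 18193 were in use. Pan-leukocyte genes had 7 of 12 members in use, 5 lower and 2 higher, where 53.0% of all genes were lower. Their median was -0.40, with a summed signal of 3979 on the array labelled knockout against 4797 on the wild-type array. The surface glycoprotein Cd52 read 143 on the array labelled knockout, which is below the floor, and 343 on the wild-type array, at least 2.07-fold lower, and Arhgdib had -0.63. Of the 7, Cd52 alone was at least 2-fold lower, against 0.883% of all genes, and 0 were at least 2-fold higher, against 0.591%. The defining leukocyte gene Ptprc, which encodes CD45, went the other way at 322 against 256, a log2 ratio of 0.33, and Laptm5 had 0.36, though 1 of its 3 probe sets went the other way. Without the floor the pan-leukocyte median was -0.20.

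Macrophage markers had 12 of 15 members in use, 9 lower and 3 higher, where 53.0% of all genes were lower. Of the 12, 1 was at least 1.5-fold lower, against 6.26% of all genes, and 0 were at least 1.5-fold higher, against 4.69%. The list median was -0.25, with a summed signal of 7413 on the array labelled knockout against 8191 on the wild-type array. The Fc receptor Fcgr1 had -0.66 and Cd68 a bound of -0.58. Lyz2 and C1qa had -0.47 and -0.42. C1qc, Mertk, C1qb, Mpeg1 and Mrc1 ran from -0.30 to -0.10, C1qb with 1 of 3 probe sets opposite. The defining genes Adgre1, a macrophage surface receptor, and Csf1r, the receptor for colony-stimulating factor, had 0.10 and 0.15, Csf1r with 1 of 3 probe sets opposite, and Cd14 had 0.22. The list median stayed between -0.30 and -0.12 in the alternatives run. The list median thus lay on the same side of 0 as H2-Ab1 and Cd74, while the 3 higher markers, Adgre1, Csf1r and Cd14, lay on the other. Each of those 3 ratios was smaller in size than the SD of 0.350 per probe set. So were those of C1qc, Mertk, C1qb, Mpeg1 and Mrc1. The part of these markers in the class II ratios was not tested.

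The other antigen-presenting and lymphoid markers were mostly below the floor, whereas 11671 of all 18193 genes were in use. Of 10 dendritic cell markers on the array 7 were below it, among them Flt3, Xcr1 and Ccr7, while Itgax, which encodes CD11c, read 185 on the array labelled knockout and 178 on the wild-type array. The highest of this list was Zbtb46, a bound of 0.37 (1 of its 2 probe sets went the other way), and the lowest was Cd209a at -0.13. The summed dendritic cell signal was 1090 on the array labelled knockout against 1076 on the wild-type array, of which the 3 genes in use gave 570 against 513. Of 9 B cell markers 7 were below the floor, among them Cd79a, Cd79b and Pax5, with Ms4a1 at -0.04 and Blk at 0.27, and a summed signal of 817 on the array labelled knockout against 877 on the wild-type array, of which the 2 genes in use gave 452 against 421. Of 10 T and NK cell markers 7 were below the floor, including Cd3e, Cd3d, Cd3g and Cd4, with a summed signal of 1089 against 1143, of which the 3 genes in use gave 835 against 754. Cd8a had 0.29 with 1 of 2 probe sets opposite, Gzmb 0.15 and Thy1 a bound of -0.19.

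**Figure D4:**
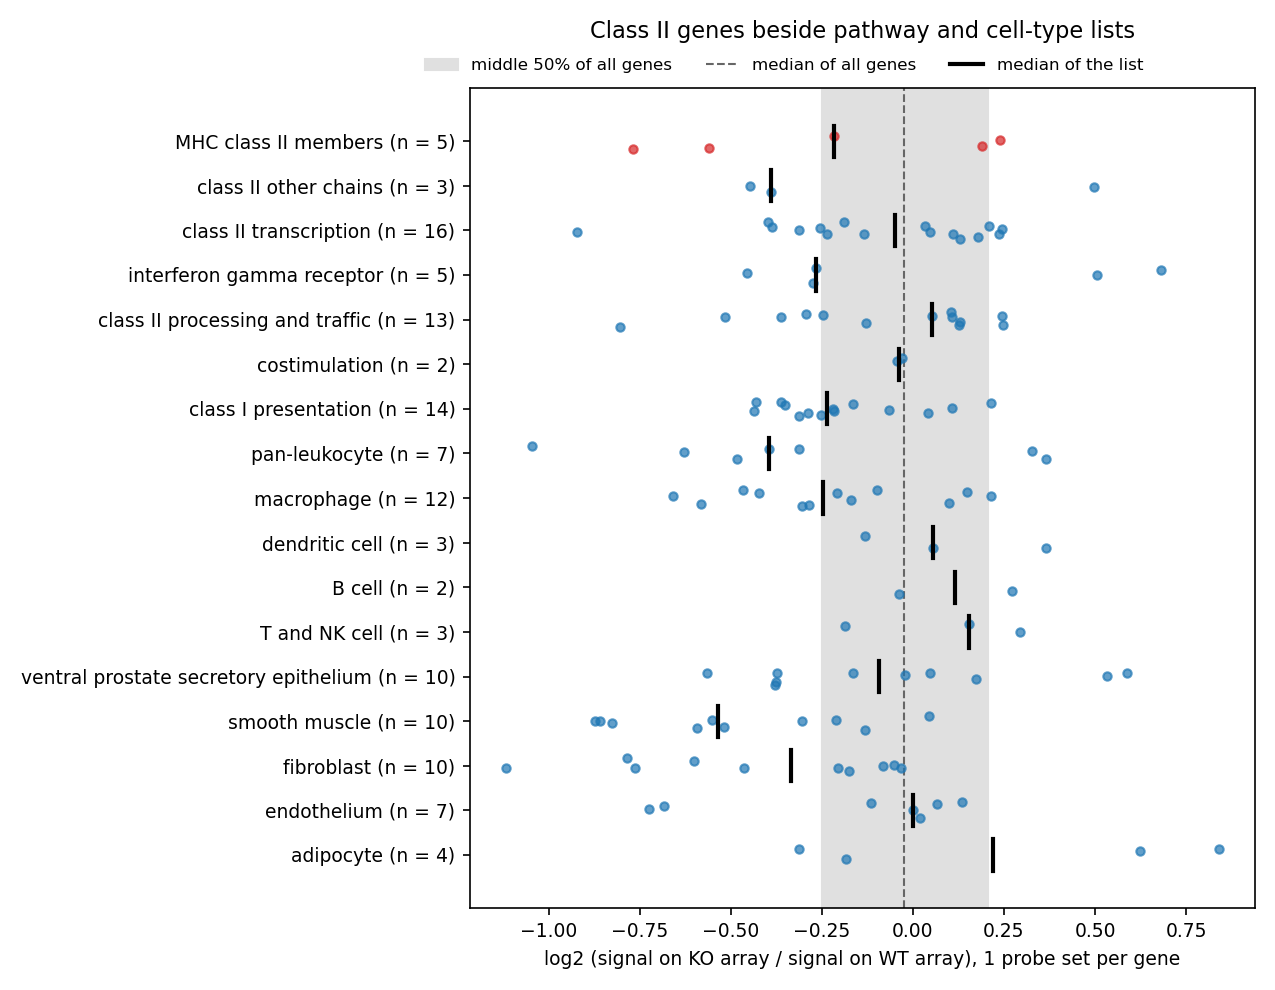
Log2 ratio of the array labelled knockout over the wild-type array for each measured gene of the class II members (red, top row) and of each other list (blue), 1 probe set per gene, with black ticks for list medians, a dashed line for the median of all genes at -0.03 and shading for their middle 50%. Smooth muscle genes have the lowest list median at -0.54, and the class II members have a median of -0.22. Without suffixed probe sets only 2 members remain, with a median of 0.011.

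Stromal markers were lower on the same array, where 53.0% of all genes were lower. Smooth muscle genes had 9 of 10 lower with a median of -0.54 and a summed signal of 39712 on the array labelled knockout against 53736 on the wild-type array, from Cnn1 at -0.87 and Myl9 at -0.86 to Synpo2 at -0.13 and Lmod1 at 0.04. Fibroblast genes had 10 of 10 lower with a median of -0.33 and a summed signal of 23524 against 28443, from Fbln2 at -1.12 and Pdgfra at -0.78 to Col1a1 at -0.05 and Dcn at -0.03. Secretory epithelial genes had 6 of 10 lower with a median of -0.09 and a summed signal of 210913 against 221369. Their lowest were Spdef at -0.56 and Pbsn at -0.38, and their highest Spink5 at 0.59 and Tmprss2 at 0.53, with 1 of 3 Tmprss2 probe sets opposite. The labelled tissue was checked on Spink1, a secretory gene of the gland, which read 64718 on the array labelled knockout and 62610 on the wild-type array, far above the floor.

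Endothelial genes, which can also carry class II molecules, had 7 of 10 members in use and a median of 0.00, from Emcn at -0.72 and Esam at -0.68 to Eng at 0.06 and Cldn5 at 0.13, with a summed signal of 2252 against 2500. Adipocyte genes had 4 of 6 in use with a median of 0.22, which was -0.18 without suffixed probe sets, and a summed signal of 1934 on the array labelled knockout against 1363 on the wild-type array. Fabp4 had 0.84, Adipoq a bound of 0.62, Retn -0.18 and Plin4 -0.31. What part the marker signals of these lists, or the 3' over 5' ratios, have in the class II ratios was not tested.

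The 5 measured members stood in the same order under each alternative that measured them. H2-Ab1 ran from -0.80 to -0.68 on the log2 scale, Cd74 from -0.58 to -0.54, H2-Eb1 from -0.25 to -0.19 and H2-DMa from 0.21 to 0.34 in every alternative that gave them a value. H2-Aa ran from -0.15, when the probe set nearest to 0 was taken, to 0.21. Leaving out suffixed probe sets removed H2-Ab1, H2-Aa and Cd74 altogether, so that the lower values of H2-Ab1 and Cd74 rest only on probe sets of the suffixed kinds.

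**Figure D5:**
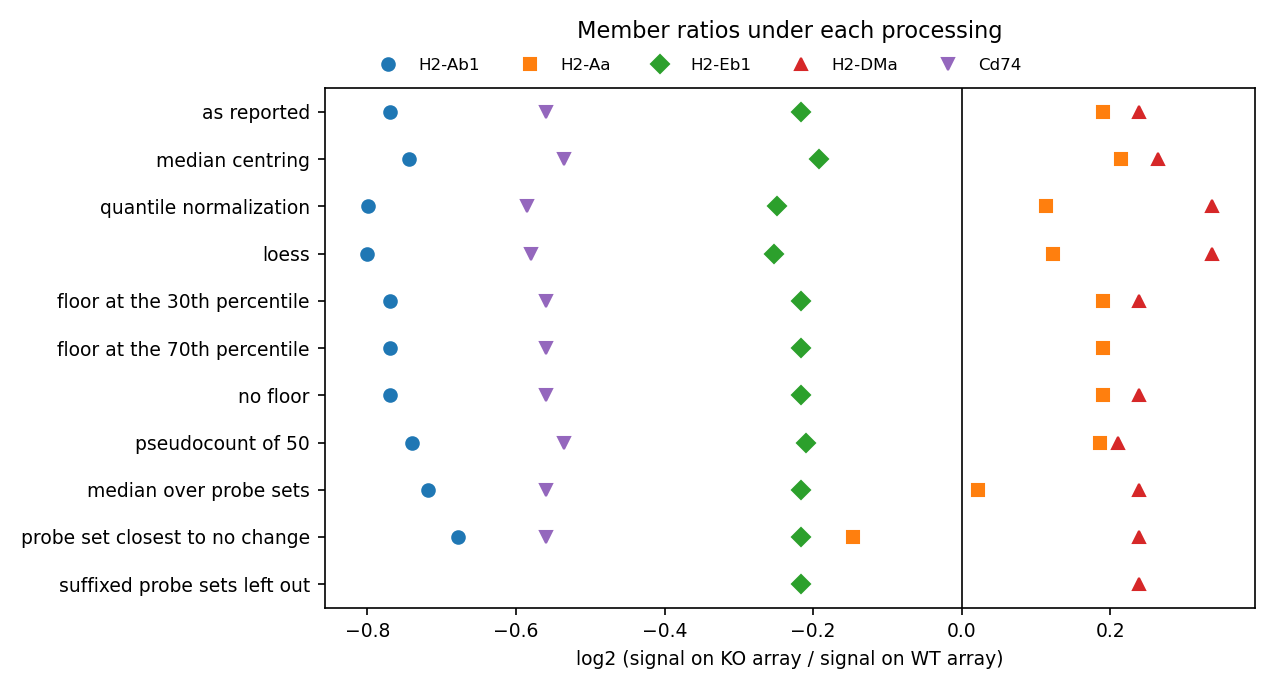
Log2 ratio of the array labelled knockout over the wild-type array for the 5 measured members as reported (top) and under each of 10 alternatives. H2-Ab1 and Cd74 stay between -0.80 and -0.54 wherever they are measured. H2-Aa moves from 0.19 as reported to -0.15 with the choice of probe set, and is missing, like H2-Ab1 and Cd74, from the bottom row.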

How the data were processed

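Ventral prostate RNA was measured on 2 Affymetrix arrays, 1 per genotype. Per the labels' protocols, 5 ug of total RNA was turned into biotin-labelled cRNA. The deposited values are linear probe-set signals, and GCOS 1.4 is named by the submitters' processing notes, whose settings are not stated. The trimmed mean, leaving out 2% at each end, shows that the authors scaled each array as a whole. Of 45037 non-control probe sets, 34945 had 1 gene symbol, 932 several and 9160 none; only the first kind was used, and 0 symbols changed through Entrez IDs. Each gene was read by its brightest probe set, judged by the log2 signal averaged over both arrays. Ratios are log2 of the array labelled knockout over the wild-type array, with no pseudocount. All members with every probe set were named, and in each other list up to 2 highest and 2 lowest genes, defining markers and Eaf2. With 2 arrays no gene could be ranked by likeness of pattern. The members and lists were chosen with earlier results of these data known. Calculations ran in Python 3.11.15 with numpy 2.4.6, pandas 2.3.3 and statsmodels 0.14.6, and were tested on simulated data. Alternatives were median centring, quantile normalization, loess (span 0.4), a pseudocount of 50, a floor at the 30th or the 70th percentile or none at all, and 3 other choices of probe set.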

Additional observations from a re-analysis of the deposited data

How the results depend on the processing

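No paired analysis was possible because each genotype had 1 array, and no replicate could be left out. The spread of 0.350 per probe set, divided by the square root of the number of genes for medians, was the measure of movement. Under median centring, quantile normalization and loess, 3 member genes were lower in each, the median log2 ratio of the members was -0.19, -0.11 and -0.25, and H2-Ab1 remained at least 1.5-fold lower. With the floor at the 70th percentile, 4 of 6 member probe sets in use were lower and the median was -0.39, since H2-DMa no longer entered. With a pseudocount of 50 all 7 members entered and the median was -0.042. Without suffixed probe sets 2 members entered, H2-Eb1 and H2-DMa, with 1 gene and 1 probe set lower, 0 at least 1.5-fold lower and a median of 0.011. The member count at least 2-fold lower was 0 in every alternative. Ciita entered with quantile normalization, at a log2 ratio of 0.03, and under a 30th percentile floor, at 0.05. For the other lists, 24 of the 158 medians under alternatives moved by more than the spread, among them the pan-leukocyte median, which lay between -0.48 and -0.14, and the smooth muscle median, between -0.56 and -0.41. Signals near or below the floor limit what can be said of Ciita, H2-Ob and H2-Oa.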

Other observations

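Probe sets that the annotation gives to several genes entered no result above. Those shared by H2-DMb1 and H2-DMb2, the beta chains of DM, read 67.8 and 40.9 on the array labelled knockout against 50.4 and 34.4 on the wild-type array, all below the floor. The probe set shared by H2-Ob and Gm20506 read 9.71 on the array labelled knockout and 51.7 on the wild-type array, also below the floor. Brd2, a bromodomain gene in the class II block and no part of antigen presentation, read 1441 on the array labelled knockout and 1682 on the wild-type array, a log2 ratio of -0.22.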
